A study of Mus musculus with 9 samples.

Results

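The axon guidance ligands and receptors are the ephrins and their Eph receptors, the semaphorins with their neuropilin and plexin receptors, the Slits and their Robo receptors, and the netrins and their Unc5 receptors. Members were found by symbol, as every protein-coding gene of the GENCODE M21 annotation named in one of these families. This gave 67 genes of the 54232 in the deposited table: 14 Eph receptors, 8 ephrins, 20 semaphorins, 9 plexins, 2 neuropilins, 3 Slits, 4 Robo receptors, 3 netrins and 4 Unc5 receptors. The rule used symbols only, but it was set with earlier results of these data known.

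Polyadenylated RNA was sequenced from wild-type mouse embryonic stem cells that had been put through embryoid body differentiation, in which the cells are grown as aggregates and begin to form the early embryonic lineages. The 9 libraries form 3 groups of 3, labelled EBD2, EBD5 and EBD6, all labelled wild type and with no undifferentiated group. One row that names no gene, MR3, held 3504 counts in EBD6 against 3 in EBD2 and 0 in EBD5, and what it stands for is not given. The labels do not spell out what the number in a group name stands for, name no strain or clone, and do not say whether the replicates of a group came from different cultures; the spread behind each p-value may therefore be technical. The study's stated purpose was to follow the transcriptome through this differentiation.

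Ephrins are anchored in the membrane and bind Eph receptor tyrosine kinases on the touching cell, with signals passing into both cells. Semaphorins, which are secreted or membrane-bound, act through plexins, and the secreted class 3 proteins mostly need a neuropilin as co-receptor; Slits bind Robo receptors, and netrins bind Dcc or Unc5 receptors. These systems were named for the steering of growth cones, and the same proteins sort cells at tissue boundaries, shape blood vessels and act in early embryonic epithelia.

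The 250 bases upstream of the transcription start were compared for the 58 members that have an entry in RefSeq's promoter table (GRCm38.p6). The median member had 16.0 CpG dinucleotides in this window, as did the median of 10718 tested protein-coding genes, against 6.0 over all 27025 genes with a window. The letters GGGCGG on either strand, the core of a GC box, were found in 72.4% of members (42 of 58), in 60.0% of the tested protein-coding genes and in 32.9% of all genes. The letters TATAAA on either strand were found in 3.45% of members, 6.28% of the tested protein-coding genes and 13% of all genes. CCAAT was found on either strand in 25.9%, 36.7% and 34.5%, and GATAA in 12.1%, 14.2% and 23.0%. Windows of 4 members with large changes are shown because they differ in CpG content: Efnb1, Unc5c and Sema3d were highest in EBD6, and Robo4 was highest in EBD2. All 4 lie on the plus strand, at chrX:99135811-99136060 (Efnb1), chr3:141465314-141465563 (Unc5c), chr5:12382916-12383165 (Sema3d) and chr9:37401722-37401971 (Robo4), and capitals mark each CG.
Efnb1: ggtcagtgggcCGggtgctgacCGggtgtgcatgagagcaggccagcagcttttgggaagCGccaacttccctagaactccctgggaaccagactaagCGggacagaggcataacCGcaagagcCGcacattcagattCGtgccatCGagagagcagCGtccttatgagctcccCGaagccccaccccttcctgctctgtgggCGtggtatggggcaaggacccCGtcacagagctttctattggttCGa
Unc5c: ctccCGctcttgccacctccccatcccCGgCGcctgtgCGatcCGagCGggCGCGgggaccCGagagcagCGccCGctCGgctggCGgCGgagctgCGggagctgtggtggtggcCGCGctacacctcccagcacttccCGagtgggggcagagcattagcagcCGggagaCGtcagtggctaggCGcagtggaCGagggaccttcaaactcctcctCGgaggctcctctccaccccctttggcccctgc
Sema3d: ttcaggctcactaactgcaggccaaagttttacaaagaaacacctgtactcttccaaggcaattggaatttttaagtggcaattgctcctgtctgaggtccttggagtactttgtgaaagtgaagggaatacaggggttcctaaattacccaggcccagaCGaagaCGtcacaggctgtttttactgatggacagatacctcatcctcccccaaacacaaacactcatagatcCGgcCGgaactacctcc
Robo4: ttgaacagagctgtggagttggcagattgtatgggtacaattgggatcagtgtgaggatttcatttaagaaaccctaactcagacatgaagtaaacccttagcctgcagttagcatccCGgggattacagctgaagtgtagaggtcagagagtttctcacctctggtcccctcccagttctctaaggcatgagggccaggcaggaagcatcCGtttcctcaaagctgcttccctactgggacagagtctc
The windows of Efnb1 and Unc5c held 13 and 23 CpGs, and those of Sema3d and Robo4 held 4 and 2, while other members with large changes held more, such as Epha8 with 46. As the 4 windows were picked to differ in CpG content, they cannot show whether it goes with direction. Over the members with a window, the median was 16.5 CpGs for the 34 higher in EBD6 than in EBD2 and 18.0 for the 12 lower. None of the 4 held TATAAA or GGGCGG, the latter found in most members.

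Library totals were between 5453412 and 11703371 expected counts. EBD2 replicates 1 and 2 differed by less than sampling noise (chi-square per gene 0.95), EBD6 replicates 2 and 3 could not be told from it (1.01, chi-square p = 0.169), and each pair was counted as 1 sample. Values are therefore given for 7 samples: EBD2 replicates 1 and 2 together and replicate 3 (n = 2), EBD5 replicates 1, 2 and 3 (n = 3), and EBD6 replicate 1 and replicates 2 and 3 together (n = 2), always in this order. EBD5 stood apart from the other groups in RNA composition, with 0.726 to 0.811% of counts on nuclear ribosomal RNA against 0.0165 to 0.0247% in EBD2 and EBD6, and 1.19 to 1.22% on processed pseudogenes against 0.234 to 0.42%. The labels name more than 1 sequencing instrument without saying which library ran on which, so instrument and group cannot be told apart. All 12 stem cell markers (Pou5f1, Nanog, Sox2 and others) were detected in each group. Their summed level was 2320 to 2550 CPM (read counts scaled to a common library size) in EBD2, 1610 to 1730 in EBD5 and 1570 to 1710 in EBD6. Single markers went both ways between EBD2 and EBD6. Tdgf1 went from 413 ± 20.2 to 138 ± 19.4 CPM, Klf4 from 17.4 ± 2.99 to 49.6 ± 4.10 CPM and Tfcp2l1 from 55.9 ± 4.64 to 149 ± 7.28 CPM (SD, n = 2 each).

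Of the 67 members, 59 had enough counts to be tested. A gene was called where the adjusted p of edgeR's quasi-likelihood test (Benjamini-Hochberg over all 16168 genes tested) was under 0.05. The 3 comparisons share their groups, so they are not independent of each other.

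Most guidance genes were higher in EBD6 than in EBD2. In that comparison 42 members rose and 12 fell, and 5 were not called, where 33.8% of all tested genes rose and 32.3% fell (66.1% in either direction). The median member had a log2 fold change of 0.96, against 0.01 over all genes. Members with 0 to 2 counts in a group lie far from the median, which is the same with Robo2, at 0 in EBD2, set to its lower bound. By at least 2-fold, 27 members rose and 8 fell, against 14.7% and 12.6% of all tested genes. As these are whole aggregates, more cells of a type and more RNA per cell cannot be told apart.

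Between EBD2 and EBD5 the members moved about equally in both directions in the main fit, but less equally with the offsets described below. In the main fit 23 rose and 20 fell, where 34.9% of all tested genes rose and 35.1% fell (70.0% in either direction). The median log2 fold change was 0.07 (all genes -0.01). From EBD5 to EBD6, 40 rose and 8 fell, where 36.9% of all tested genes rose and 33.3% fell (70.2% in either direction), and the median was 0.61 (all genes 0.04). The share of all tested genes with each pattern over the 3 comparisons is not given here, so the pattern counts that follow cannot be set against it. In 18 members the level rose in all 3 comparisons, among them both neuropilins, Efnb1, Efna5, Sema3a, Slit2, Slit3 and Robo2, the last with samples that overlapped between EBD5 and EBD6. With offsets for GC content and length, described next, 6 of these lost or turned a call: Epha4 and Slit2 into EBD5, and Unc5b, Epha1, Plxnb2 and Ephb4 from EBD5 to EBD6. A further 12 were not called between EBD2 and EBD5 and were higher in EBD6 than in both, among them Efnb2, Ephb3, Ntn1, Sema3d and Unc5c. With the offsets Ntn1, Ephb3, Sema3f and Sema4d were called higher in EBD5 than in EBD2 (offset values 0.84, 0.29, 0.46 and 0.24). Sema4d also lost its call from EBD5 to EBD6 (0.44, offset value 0.10). Another 6 (Efnb3, Epha2, Ephb2, Plxna4, Sema4b and Sema7a) fell into EBD5 and were highest in EBD6, and the fall of 4 of these (Efnb3, Epha2, Ephb2 and Sema4b) was lost with the offsets. Of the remaining patterns, 8 members were lower in EBD5 and EBD6 than in EBD2 without a call between EBD5 and EBD6: Sema6b, Unc5a, Sema4a, Epha10, Plxna3, Robo4, Sema5b and Plxnc1. With the offsets Sema6b lost its call into EBD5 (-1.05, offset value -0.37), and Sema6b, Plxna3 and Sema5b were called lower in EBD6 than in EBD5 (offset values -0.63, -0.68 and -1.16).

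Calls of the steps into and out of EBD5 changed when offsets for the GC content and length of the genes were fitted, and why was not tested. With these offsets, fitted per sample, all 54 calls of EBD6 against EBD2 kept their direction, 2 were gained, and the median fell to 0.71. Between EBD2 and EBD5, the offsets gave 27 members higher and 12 lower, with 10 calls lost and 6 gained. The median there went from 0.07 to 0.24 (all genes -0.006 with the offsets). Between EBD5 and EBD6 the offsets gave 32 higher and 16 lower, with 4 calls lost, 4 gained and 5 turned from higher to lower (Efna2, Unc5b, Epha1, Plxnd1 and Plxnb2). Here the median went from 0.61 to 0.34 (all genes 0.042 with the offsets). The shares of all tested genes called with the offsets are not given here, so these counts cannot be set against them. For the members described below, the value with the offsets is given as the offset value where it ends a call or moves a printed log2 fold change by over 1.5 times.

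**Figure D1:**
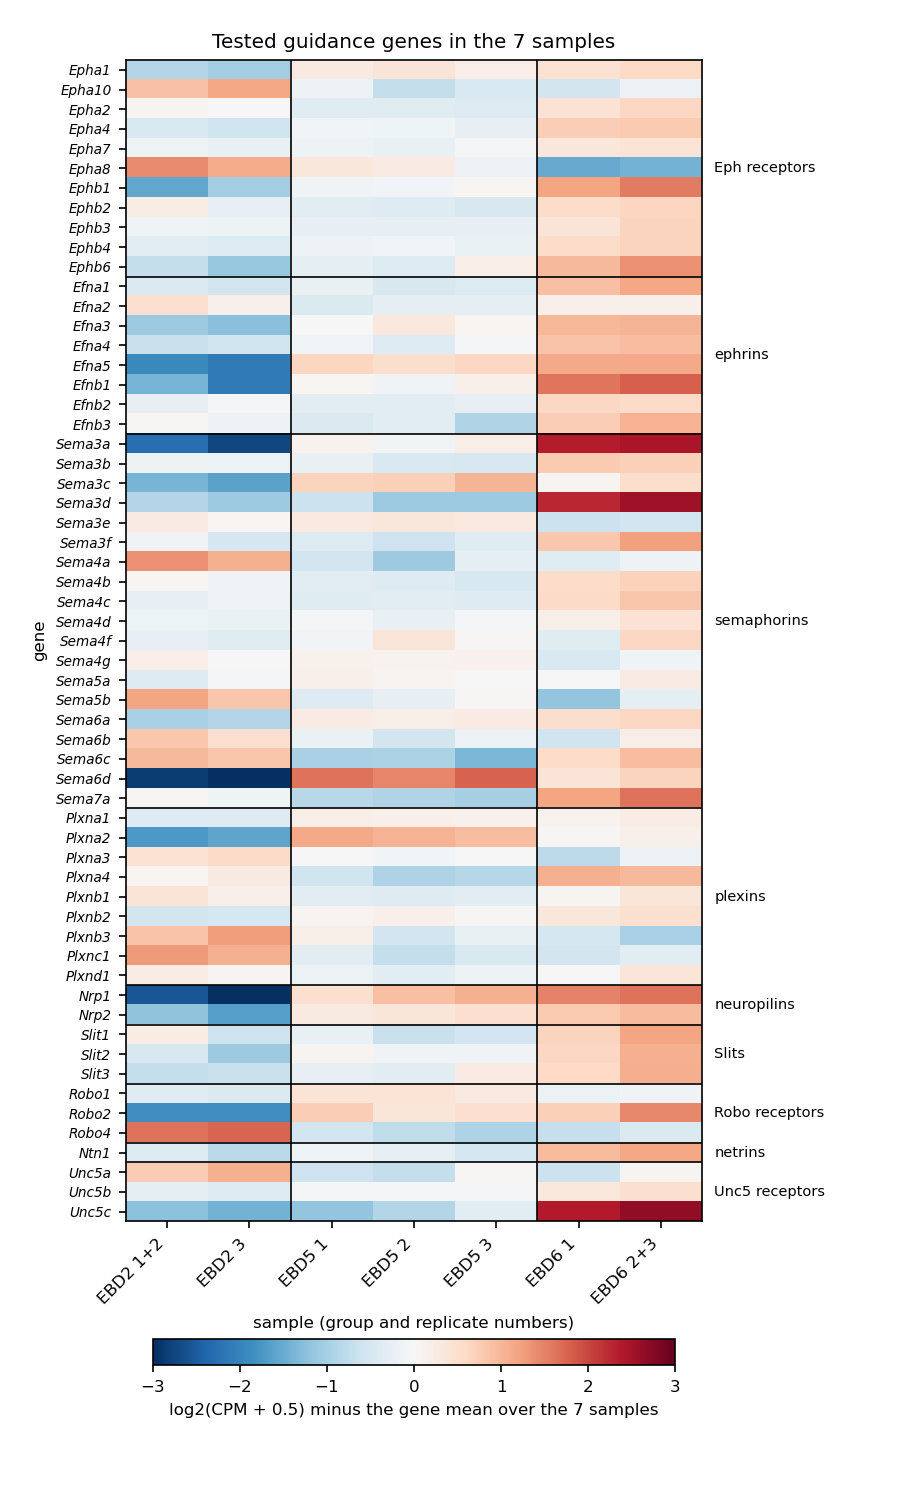
Level of the 59 tested guidance genes (rows, by family) in the 7 samples (columns), as log2(CPM + 0.5) minus the gene's mean over the samples; red is higher and blue lower. The 2 EBD6 columns are red for most ephrins, EphB receptors, neuropilins and Slits, and Robo4, Epha8, Sema4a and Plxnc1 are highest in the 2 EBD2 columns.

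Ephrins were mostly highest in EBD6. All 8 were tested, and 7 rose from EBD2 to EBD6 while none fell. Efna2, not called in that comparison (-0.20), was called lower with the offsets (-0.39) and without EBD2 replicate 3. All 8 rose from EBD5 to EBD6, although Efna2 turned to lower with the offsets (log2 fold change 0.49, offset value -0.38). Summed over the family, the level per length of exon was 46.6 ± 2.26 RPKM (CPM per kilobase; SD, n = 2) in EBD2, 62.0 ± 1.18 (n = 3) in EBD5 and 125 ± 4.82 (n = 2) in EBD6.

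Efnb1, an ephrin that spans the membrane and is known from boundary formation in the skeleton and face, rose at both steps. Its level was 8.82 and 5.11 CPM in EBD2, 24.8, 22.2 and 26.4 CPM in EBD5, and 73.1 and 84.3 CPM in EBD6. No sample of one group overlapped another, and EBD6 was 10.6-fold above EBD2 (log2 fold change 3.41 ± 0.17 SE, edgeR adjusted p = 2.71e-08). The step from EBD5 to EBD6 had a log2 fold change of 1.70 and an offset value of 0.78, still called.

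Efna5, which is held in the membrane by a lipid anchor and guides retinal axons, made most of its rise by EBD5. It stood at 5.91 and 5.11 CPM in EBD2, at 37.4, 34.6 and 37.2 CPM in EBD5 and at 52.8 and 53.2 CPM in EBD6. EBD5 was 6.46-fold above EBD2 (log2 fold change 2.69 ± 0.12 SE, edgeR adjusted p = 1.02e-08), and EBD6 was 9.41-fold above EBD2 (3.23 ± 0.11, edgeR adjusted p = 2.31e-09).

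Efna1, Efna3 and Efna4 are neighbours on the minus strand of chromosome 3 (GRCm38, 89271733-89281142, 89313899-89322965 and 89333390-89338028), and all 3 rose from EBD2 to EBD6. Efna3 was at 10.8 and 9.51 CPM in EBD2, 23.2, 29.4 and 24.4 CPM in EBD5 and 47.2 and 47.9 CPM in EBD6, 4.61-fold above EBD2 (edgeR adjusted p = 9.52e-08). Efna4 went from 12.7 ± 0.511 CPM (SD, n = 2) in EBD2 to 37.3 ± 1.43 CPM (n = 2) in EBD6, 2.98-fold (edgeR adjusted p = 9.89e-07). Efna1 was not called between EBD2 and EBD5, at 5.13 ± 0.277 and 5.65 ± 0.575 CPM, and reached 14.3 and 17.2 CPM in EBD6, 2.85-fold above EBD5 (edgeR adjusted p = 8.91e-06). Exons of Efna3 and Efna4 overlap antisense transcripts over 14.1% and 10.5% of their length. Those transcripts held 45 and 168 counts in all libraries, and the strand setting of the counting is not given in the sources used here.

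Efnb2, a marker of arteries, had the highest mean level per kilobase of the ephrins over the 3 groups, at 12.4 RPKM in EBD2, 11 in EBD5 and 20.4 in EBD6. Efna2 was above it in EBD2 (13.2 RPKM), and Efna4 and Efnb1 were above it in EBD6 (23.3 and 22.8 RPKM). Its CPM values were 79.2 and 91.0, then 74.1, 74.4 and 78.2, then 143 and 138. EBD6 was above every other sample (1.66-fold over EBD2, log2 fold change 0.73 ± 0.07 SE, edgeR adjusted p = 7.69e-06), and EBD5 against EBD2 was not called (-0.16). Efnb3, which is known as a midline barrier to corticospinal axons, was at 9.15 and 7.92 CPM in EBD2, 6.47, 7.02 and 4.53 in EBD5 and 15.3 and 18.9 in EBD6. Its rise from EBD5 to EBD6 was 2.89-fold (edgeR adjusted p = 2.04e-05, log2 fold change 1.53, offset value 0.89). Its small decrease into EBD5 (-0.52, edgeR adjusted p = 0.0421) was lost with the offsets (-0.13) and when any one of the EBD2 libraries or EBD5 replicates 1 or 3 was left out.

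Among the Eph receptors 11 of 14 were tested, and 9 rose and 2 fell from EBD2 to EBD6. The EphB receptors, which mostly bind the ephrin-B proteins, all rose in that comparison (5 of 5), and the EphA receptors split into 4 higher and 2 lower. The summed level was 55.5 ± 2.88 RPKM in EBD2 (SD, n = 2), 58.9 ± 1.53 in EBD5 (n = 3) and 98.3 ± 8.06 in EBD6 (n = 2). From EBD5 to EBD6, 9 rose and 1 fell, and with the offsets 7 rose and 2 fell.

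Ephb1 had the largest rise of the family, from a low level. It was at 0.333 and 0.704 CPM in EBD2, at 1.8, 1.84 and 2.08 in EBD5 and at 5.11 and 6.74 in EBD6, with no overlap between groups (13-fold over EBD2, log2 fold change 3.71 ± 0.37 SE, edgeR adjusted p = 6.14e-06). Ephb6, whose kinase domain is inactive, rose from 2.74 and 1.94 CPM in EBD2 through 3.95, 3.51 and 5.67 CPM in EBD5 to 10 and 13.3 CPM in EBD6 (4.90-fold over EBD2, edgeR adjusted p = 1.77e-05). The other EphB receptors moved less: Ephb4, the venous partner of Efnb2, rose 1.98-fold, Ephb3 1.62-fold and Ephb2 1.48-fold over EBD2. The last of these values was not called against a fold of 1.5, nor was that of Ephb3.

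Epha2, a receptor abundant in stem cells and epithelia, had the highest level per kilobase of the Eph receptors, with 19.3, 14.4 and 27.1 RPKM over the groups. Its CPM values were 92.9 and 87.2, then 68.0, 68.4 and 66.3, then 118 and 136. The groups did not overlap, and the rise over EBD2 was 1.42-fold (log2 fold change 0.50 ± 0.08 SE, edgeR adjusted p = 0.00017, offset value 0.25, not called against a fold of 1.5). Epha1 was at 19.4 and 17.3 CPM in EBD2, 43.5, 47.6 and 41.4 CPM in EBD5 and 50 and 54.9 CPM in EBD6, 2.85-fold over EBD2 (edgeR adjusted p = 3.62e-07). Its exons overlap those of Zyx on the opposite strand over 6.01% of their length, and Zyx held 6493 counts against 2654 of Epha1. Epha4, which binds ephrins of both classes, rose 2.45-fold over EBD2, from 33.8 ± 2.51 to 83.4 ± 1.40 CPM (SD, n = 2 each, edgeR adjusted p = 2.96e-07).

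Epha8 and Epha10 were the Eph receptors that fell. Epha8 was at 7.32 and 5.81 CPM in EBD2, 3.24, 3.01 and 2.08 in EBD5 and 0.528 and 0.594 in EBD6, a stepwise decrease without overlap (11.3-fold lower in EBD6 than in EBD2, log2 fold change -3.50 ± 0.33 SE, edgeR adjusted p = 3.7e-06). Its decrease into EBD5 was lost with the offsets (log2 fold change -1.26, offset value -0.57). Epha10, a receptor with an inactive kinase domain, was at 6.07 and 7.40 CPM in EBD2, 2.7, 1.67 and 2.08 in EBD5 and 1.94 and 2.67 in EBD6, where EBD5 and EBD6 overlapped and both lay below EBD2 (2.7-fold lower in EBD6, edgeR adjusted p = 0.000623). Its offset value between EBD2 and EBD5 was -1.07, against -1.62. Epha3, Epha5 and Epha6 did not pass the filter, and no sample had more than 1.17 CPM of them.

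**Figure D2:**
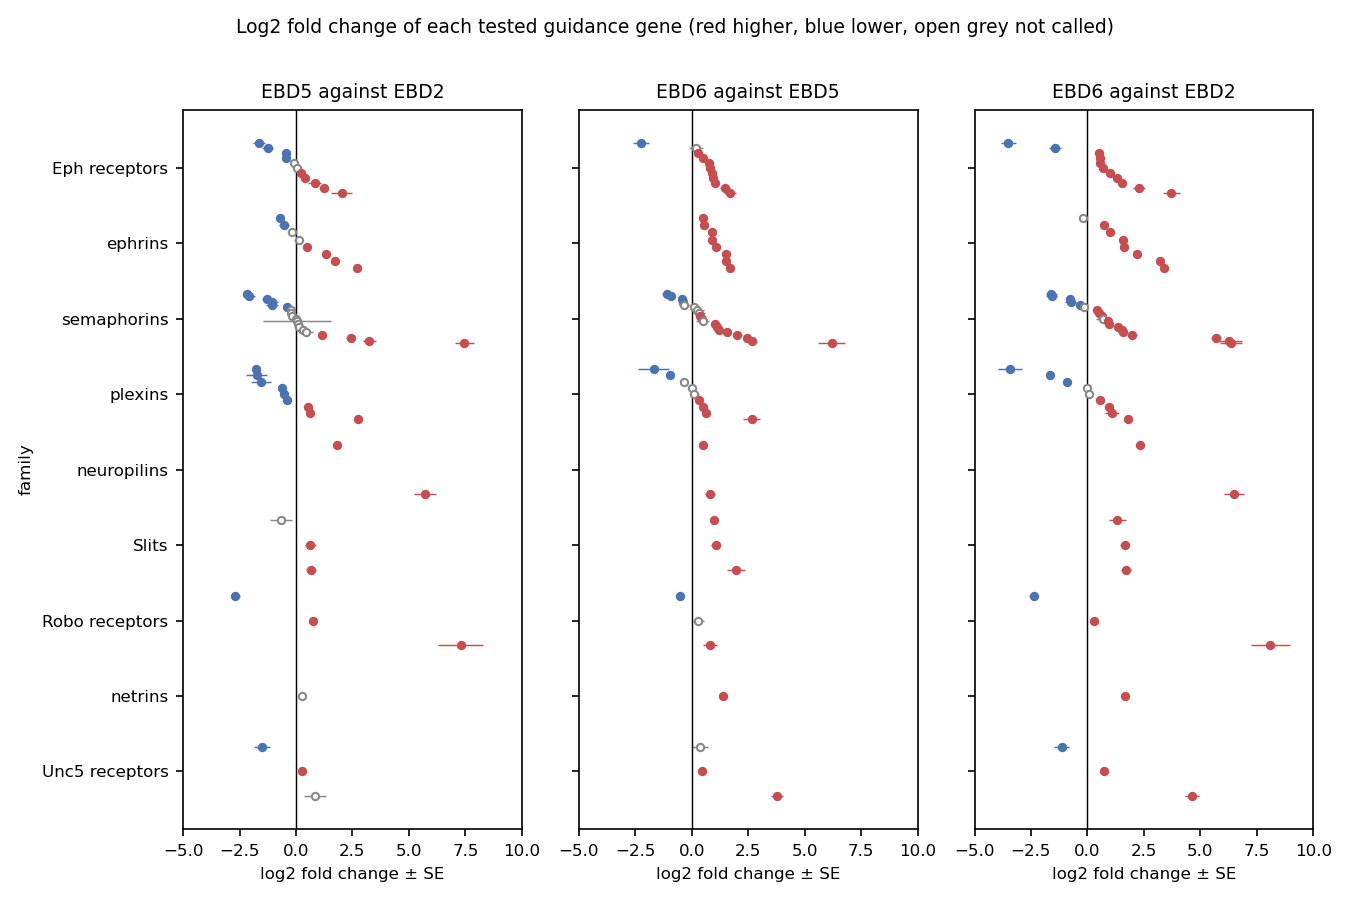
Log2 fold change of each tested guidance gene (points) with its standard error (bars) by family, in the 3 comparisons; red points were called higher, blue lower, and open grey points were not called. In EBD6 against EBD2 no ephrin, neuropilin, Slit or netrin was called lower, and the points above 5 are Sema3a and genes with 0 to 2 counts in EBD2, whose fitted values depend on those few counts.

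Semaphorins are the largest family here, and 19 of 20 were tested. From EBD2 to EBD6, 12 rose and 5 fell, with a median log2 fold change of 0.70. The class 3 genes, which code for secreted proteins, had 5 of 6 higher and a median of 1.67, and the membrane-bound class 4 genes had 3 of 6 higher, 2 lower and a median of 0.57. The summed level was 51.7 ± 3.47 RPKM in EBD2 (SD, n = 2), 51.9 ± 0.973 in EBD5 (n = 3) and 75.2 ± 9.39 in EBD6 (n = 2).

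Sema3a, the classical growth cone repellent and a ligand of Nrp1, rose at both steps. It was at 0.665 and 0.352 CPM in EBD2, 5.57, 4.85 and 6.04 CPM in EBD5 and 28.5 and 30.4 CPM in EBD6. The groups lay far apart, with EBD6 51.4-fold above EBD2 (log2 fold change 5.68 ± 0.23 SE, edgeR adjusted p = 6.34e-09) and 5.41-fold above EBD5 (2.44 ± 0.14, edgeR adjusted p = 1.47e-07). Sema3d, a class 3 semaphorin known from heart and vessel development, was near 0 in the first 2 groups. It had 1 count in EBD2, 1 count in EBD5 and 162 counts in EBD6, where its level was 4.58 and 5.77 CPM. EBD6 was 98.0 times EBD2 (exact 95% counting interval 17.3 to 3900) and 93.3 times EBD5 (16.5 to 3710), intervals that cover counting error only. The single counts were in EBD2 replicate 1 and EBD5 replicate 1, and leaving either out moved the fitted log2 fold change from 6.25 to 8.47 and from 6.19 to 8.69.

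Sema3c, which is needed for outflow tract septation, and Sema6d were highest in EBD5. Sema3c was at 3.58 and 2.99 CPM in EBD2, 16.5, 16.9 and 21.0 CPM in EBD5 and 10.7 and 14.8 CPM in EBD6, 5.35-fold above EBD2 in EBD5 (edgeR adjusted p = 2.31e-06). Its decrease from EBD5 to EBD6 (log2 fold change -0.44, edgeR adjusted p = 0.0321) was lost with the offsets (-0.05), with DESeq2's Wald test, and without EBD5 replicate 3 or EBD6 replicate 1. Sema6d, a membrane-bound ligand of A-type plexins, had 1 count in EBD2, 207 in EBD5 and 171 in EBD6, with levels of 12.4, 11 and 13.6 CPM in EBD5 and 4.93 and 6.07 CPM in EBD6. The EBD5 level was 218 times that of EBD2 (exact 95% counting interval 38.6 to 8640), and the level then fell 2.16-fold into EBD6 (log2 fold change -1.11 ± 0.19 SE, edgeR adjusted p = 0.000289). Leaving out EBD2 replicate 1, which held the single count, moved the fitted log2 fold change of EBD5 against EBD2 from 7.46 to 9.68 and that of EBD6 against EBD2 from 6.35 to 8.56.

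Sema7a and Sema6c were lowest in EBD5. Sema7a, a lipid-anchored semaphorin that binds integrins and Plxnc1, was at 4.08 and 3.52 CPM in EBD2, 1.98, 1.84 and 1.70 in EBD5 and 9.51 and 13 in EBD6. EBD6 was above all other samples, 6.31-fold over EBD5 (log2 fold change 2.66 ± 0.23 SE, edgeR adjusted p = 1.89e-06) and 3.01-fold over EBD2 (edgeR adjusted p = 5.66e-05). Sema6c was at 15.4 and 13.9 CPM in EBD2, 3.60, 3.68 and 2.64 in EBD5 and 11.3 and 14.7 in EBD6, so that EBD2 and EBD6 overlapped and EBD5 lay below both. It fell 4.43-fold into EBD5 (edgeR adjusted p = 3.36e-06) and rose 4.03-fold out of it (log2 fold change 2.01, offset value 1.18).

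Sema3e, Sema4a and Sema5b had the largest decreases among semaphorins that did not overlap between EBD2 and EBD6. Sema3e, which binds Plxnd1 without a neuropilin, was at 73.3 and 64.1 CPM in EBD2, 75.9, 78.2 and 75.4 CPM in EBD5 and 39.1 and 41.4 CPM in EBD6 (1.71-fold below EBD2, edgeR adjusted p = 1.3e-05). The fall from EBD5 had a log2 fold change of -0.92 and an offset value of -0.53. Sema4a fell from 10.4 and 8.45 CPM in EBD2 to 2.34, 1.5 and 3.02 in EBD5 and stayed within overlapping values in EBD6, at 2.82 and 3.31 (3.02-fold below EBD2, edgeR adjusted p = 0.00019). Sema5b went from 20.1 and 15.7 CPM in EBD2 to 6.47, 7.19 and 8.88 in EBD5 and 3.52 and 7.08 in EBD6 (3.04-fold below EBD2, edgeR adjusted p = 0.000149), with an offset value into EBD5 of -0.72 against -1.28.

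Sema4b had the highest level per kilobase of the semaphorins in EBD2 and EBD6, at 9.05 and 14.2 RPKM, followed in EBD6 by Sema4c at 11.1 and Sema6a at 10.9. In EBD5 it was at 6.91 RPKM, below Sema6a (8.54) and Sema3e (8.24). Sema4b stood at 54.2 and 47.9 CPM in EBD2, 40.4, 39.6 and 37.0 CPM in EBD5 and 75.6 and 84.3 CPM in EBD6. Its rise over EBD2 was 1.56-fold (edgeR adjusted p = 7.47e-05, not called against a fold of 1.5), and its fall into EBD5 (-0.40) was lost with the offsets (0.00). Sema3b and Sema3f, neighbours on chromosome 9 (107597674-107609229 and 107681500-107710475), rose 1.96-fold and 2.56-fold from EBD2 to EBD6 (edgeR adjusted p = 0.00048 and 4.22e-05). Sema3d, Sema3a, Sema3e and Sema3c lie in this order on the plus strand of chromosome 5, the first starting at 12383385 and the last ending at 17730268, and their directions over the groups differed as described. Sema4f was not called in any comparison (4.23 ± 0.253, 5.84 ± 1.04 and 6.29 ± 3.16 CPM), and Sema3g did not pass the filter. With the offsets Sema4f was called higher in EBD5 than in EBD2 (0.46, offset value 0.85).

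**Figure D3:**
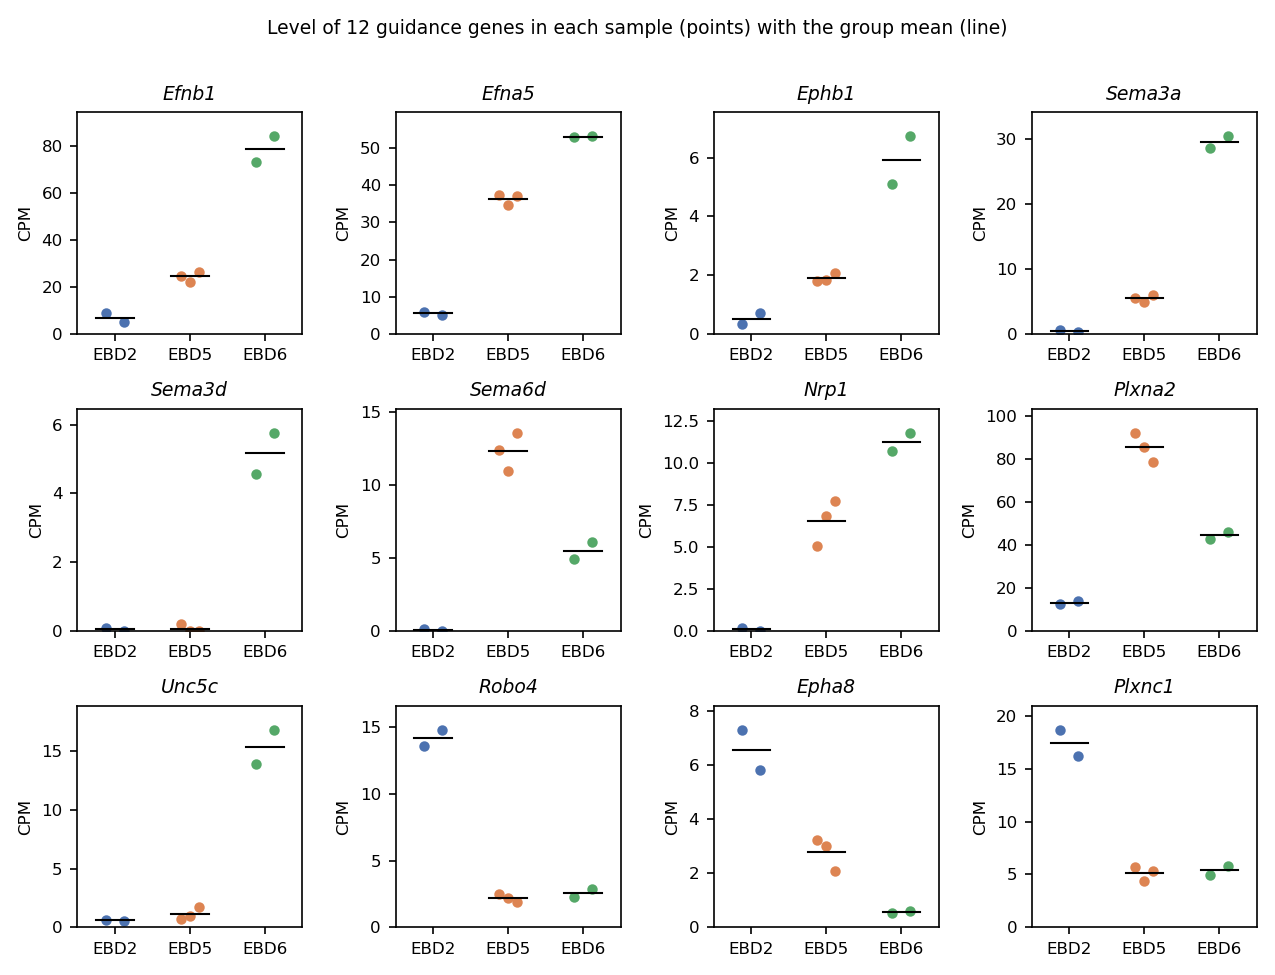
Level in CPM (linear axes from 0) of 12 guidance genes in each sample (points) with the group mean (lines), for EBD2 (n = 2), EBD5 (n = 3) and EBD6 (n = 2). Efnb1, Efna5, Ephb1, Sema3a, Sema3d, Nrp1 and Unc5c are highest in EBD6, Sema6d and Plxna2 in EBD5, and Robo4, Epha8 and Plxnc1 in EBD2.

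Both neuropilins rose in all 3 comparisons. Nrp1, the co-receptor of Sema3a and of vascular endothelial growth factor, had 2 counts in EBD2, 110 in EBD5 and 339 in EBD6. Its level was 0.166 and 0 CPM, then 5.03, 6.85 and 7.74, then 10.7 and 11.8, without overlap. EBD5 was 57.8 times EBD2 (exact 95% counting interval 15.6 to 483) and EBD6 was 103 times EBD2 (28.2 to 850). Both counts were in EBD2 replicate 1, without which the fitted log2 fold changes moved from 5.70 to 8.76 and from 6.5 to 9.56. The further rise from EBD5 to EBD6 (1.74-fold, edgeR adjusted p = 0.00469) was not called by DESeq2's Wald test or against a fold of 1.5. Nrp2, which binds Sema3f and Sema3c, was at 8.07 and 5.81 CPM in EBD2, 23.4, 25.1 and 27.6 CPM in EBD5 and 33.6 and 37.9 CPM in EBD6 (4.99-fold over EBD2, log2 fold change 2.32 ± 0.15 SE, edgeR adjusted p = 2.16e-07).

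Plexins, the signalling receptors of the semaphorins, had no common direction: all 9 were tested, and 4 rose and 3 fell from EBD2 to EBD6. Into EBD5, 3 rose and 6 fell, and with the offsets 3 rose and 5 fell. From EBD5 to EBD6, 4 rose and 2 fell, but with the offsets 1 rose and 6 fell. The summed level was 59.5 ± 0.697 RPKM in EBD2 (SD, n = 2), 76.6 ± 1.93 in EBD5 (n = 3) and 83.1 ± 6.59 in EBD6 (n = 2).

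Plxna1 gave the highest level per kilobase of all plexins, at 24.9, 36.3 and 36.5 RPKM in EBD2, EBD5 and EBD6. It was at 226 and 225 CPM in EBD2, 336, 329 and 321 CPM in EBD5 and 318 and 343 CPM in EBD6, with EBD5 and EBD6 overlapping and EBD2 below both (1.47-fold for EBD6 over EBD2, edgeR adjusted p = 3e-05, not called against a fold of 1.5). EBD6 against EBD5 was not called (0.01), but was called lower with the offsets (-0.50). Plxnb2, a receptor of class 4 semaphorins, rose 1.94-fold from 119 ± 1.55 CPM in EBD2 to 231 ± 16.4 CPM in EBD6 (SD, n = 2 each, edgeR adjusted p = 6.93e-07). Plxna2, a receptor of class 6 semaphorins, was highest in EBD5, at 92.2, 85.7 and 78.8 CPM, against 12.3 and 13.6 in EBD2 and 42.6 and 46.1 in EBD6. It rose 6.69-fold into EBD5 (log2 fold change 2.74 ± 0.11 SE, edgeR adjusted p = 4.49e-09) and then fell 1.91-fold (-0.94 ± 0.09, edgeR adjusted p = 2.82e-06).

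Plxna4 had low levels, with 1.16 and 1.41 CPM in EBD2, 0.539, 0.334 and 0.378 in EBD5 and 2.82 and 2.63 in EBD6, a rise of 6.30-fold from EBD5 (edgeR adjusted p = 7.65e-05). Its rise over EBD2 and its fall into EBD5 were not called by DESeq2's Wald test, nor was the rise over EBD2 against a fold of 1.5. Plxnc1, the plexin that binds Sema7a, fell from 18.7 and 16.2 CPM in EBD2 to 5.75, 4.35 and 5.29 in EBD5 and 4.93 and 5.85 in EBD6 (3.16-fold lower in EBD6, log2 fold change -1.66 ± 0.17 SE, edgeR adjusted p = 8.04e-06). Sema7a and Plxnc1 thus moved in opposite directions between EBD2 and EBD6. Plxnb3 was at 1.75 and 2.47 CPM in EBD2 and at 0.352 and 0.127 in EBD6, 10.8-fold lower (edgeR adjusted p = 0.00019). Plxna3 fell 1.85-fold, from 36.7 and 40.0 CPM to 15.1 and 23.6 (edgeR adjusted p = 0.000413). Plxnb1 and Plxnd1 were lower in EBD5 than in EBD2 and in EBD6, and EBD6 overlapped EBD2. With the offsets the call of Plxnb1 between EBD5 and EBD6 was lost (0.61, offset value 0.09) and that of Plxnd1 turned (0.48, offset value -0.35). The fall of Plxnd1 into EBD5 (-0.40, edgeR adjusted p = 0.0363) was also lost with the offsets (0.17), by DESeq2's Wald test, and without EBD2 replicate 2 or any single EBD5 library.

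All 3 Slits rose from EBD2 to EBD6 and from EBD5 to EBD6. Slit3, the highest of them per kilobase, was at 5.49 and 5.64 CPM in EBD2, 7.73, 7.35 and 11 in EBD5 and 14.3 and 20.4 in EBD6 (3.25-fold over EBD2, log2 fold change 1.70 ± 0.22 SE, edgeR adjusted p = 4.95e-05). Slit2, the ligand known from midline repulsion and kidney induction, was at 8.57 and 5.46 CPM in EBD2, 11.8 ± 0.868 in EBD5 (SD, n = 3) and 19.0 and 26.0 in EBD6 (3.14-fold over EBD2, edgeR adjusted p = 3.13e-05). Slit1 was at 1.66 and 0.704 CPM in EBD2, 1.08, 0.669 and 0.755 in EBD5 and 2.47 and 3.73 in EBD6. Its rise over EBD2 (2.49-fold, edgeR adjusted p = 0.00947) was not called by DESeq2's Wald test or without EBD2 replicate 3. The smaller rises of Slit2 and Slit3 into EBD5 were each lost without EBD2 replicate 3, and that of Slit2 also with the offsets. The rise of Slit3 was lost as well without EBD2 replicate 1 or EBD5 replicate 3, by DESeq2's Wald test and by limma-voom. From EBD5 to EBD6, the offset values of Slit1 and Slit3 were 1.14 against 1.97 and 0.54 against 1.06.

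The Robo receptors were the one family whose summed level was lowest in EBD6, at 4.79 ± 0.0745 RPKM in EBD2 (SD, n = 2), 3.80 ± 0.232 in EBD5 (n = 3) and 3.07 ± 0.264 in EBD6 (n = 2). Of the 3 tested, 2 rose and 1 fell from EBD2 to EBD6. Robo4, which is known from endothelium, was at 13.6 and 14.8 CPM in EBD2, 2.52, 2.17 and 1.89 in EBD5 and 2.29 and 2.88 in EBD6. EBD2 lay above all other samples, 5.19-fold over EBD6 (log2 fold change -2.37 ± 0.20 SE, edgeR adjusted p = 1.64e-06). Robo3, its neighbour on chromosome 9 (37415669-37433246, minus strand, against 37401897-37415115, plus strand), did not pass the filter and had 26 counts in EBD2, 1 in EBD5 and 22 in EBD6.

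Robo2, a Slit receptor of neurons and of the kidney, had no count in EBD2, 36 in EBD5 and 118 in EBD6. Levels were 2.52, 1.84 and 2.08 CPM in EBD5 and 2.47 and 4.41 CPM in EBD6, which overlap. Against 3 counts over the EBD2 group, EBD5 was at least 12.6-fold higher and EBD6 at least 23.8-fold higher. Its call between EBD5 and EBD6 (edgeR adjusted p = 0.0476) was lost without any single EBD5 library, without EBD2 replicate 3, without EBD6 replicate 2 or 3, and by DESeq2's Wald test. Robo1 had 1.89, 3.25 and 2.28 RPKM over the groups, the highest Robo receptor per kilobase in EBD5 and EBD6, with Robo4 above it in EBD2 (2.68 RPKM). It stood at 32.1 and 30.5 CPM in EBD2, 54.8, 55.8 and 50.4 CPM in EBD5 and 36.8 and 38.6 CPM in EBD6. EBD5 lay above both other groups, 1.71-fold over EBD2 (edgeR adjusted p = 1.08e-05), and EBD6 was 1.21-fold over EBD2 (edgeR adjusted p = 0.0195), a call lost without EBD2 replicate 3, by DESeq2's Wald test, against a fold of 1.5 and in a fit of only these groups.

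Ntn1, the netrin that attracts commissural axons through Dcc, was the only one of 3 netrins with enough counts to test. It was at 11.6 and 8.63 CPM in EBD2, 14.2, 13 and 10.6 CPM in EBD5 and 30.3 and 35.5 CPM in EBD6. EBD2 and EBD5 overlapped, and EBD6 was 3.20-fold over EBD2 (log2 fold change 1.68 ± 0.16 SE, edgeR adjusted p = 4.65e-06) and 2.64-fold over EBD5 (log2 fold change 1.40, offset value 0.58). EBD5 against EBD2 was not called (0.28), but was called higher with the offsets (0.84), a larger offset value than that from EBD5 to EBD6. Ntn4 and Ntn5 stayed at or below 1.59 CPM in every sample. Dcc did not pass the filter either.

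Of the Unc5 receptors, which turn the response to netrin into repulsion, 3 of 4 were tested, and 2 rose and 1 fell from EBD2 to EBD6. Unc5b, known from vessels, made up most of the family's level per kilobase, with 13.9 RPKM of 15.3 ± 0.521 in EBD2 and 23.0 RPKM of 24.4 ± 2.06 in EBD6 (SD, n = 2 each). It was at 90.1 and 83.8 CPM in EBD2, 106, 107 and 105 CPM in EBD5 and 136 and 152 CPM in EBD6 (1.66-fold over EBD2, log2 fold change 0.73 ± 0.07 SE, edgeR adjusted p = 5.14e-06, offset value 0.48). The step from EBD5 to EBD6 was called higher (0.45) and turned to lower with the offsets (-0.36). Unc5c had the largest change of the family, at 0.665 and 0.528 CPM in EBD2, 0.719, 1.0 and 1.70 in EBD5 and 13.9 and 16.8 in EBD6. EBD6 stood far above the other samples, 24.7-fold over EBD2 (log2 fold change 4.63 ± 0.30 SE, edgeR adjusted p = 2.16e-07) and 13.7-fold over EBD5 (3.77 ± 0.26, edgeR adjusted p = 3.45e-07). Unc5a fell from 5.07 and 6.34 CPM in EBD2 to 1.59 and 2.97 CPM in EBD6 (2.20-fold, edgeR adjusted p = 0.00879), a call lost without EBD2 replicate 2 or 3 and against a fold of 1.5, and Unc5d did not pass the filter.

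**Figure D4:**
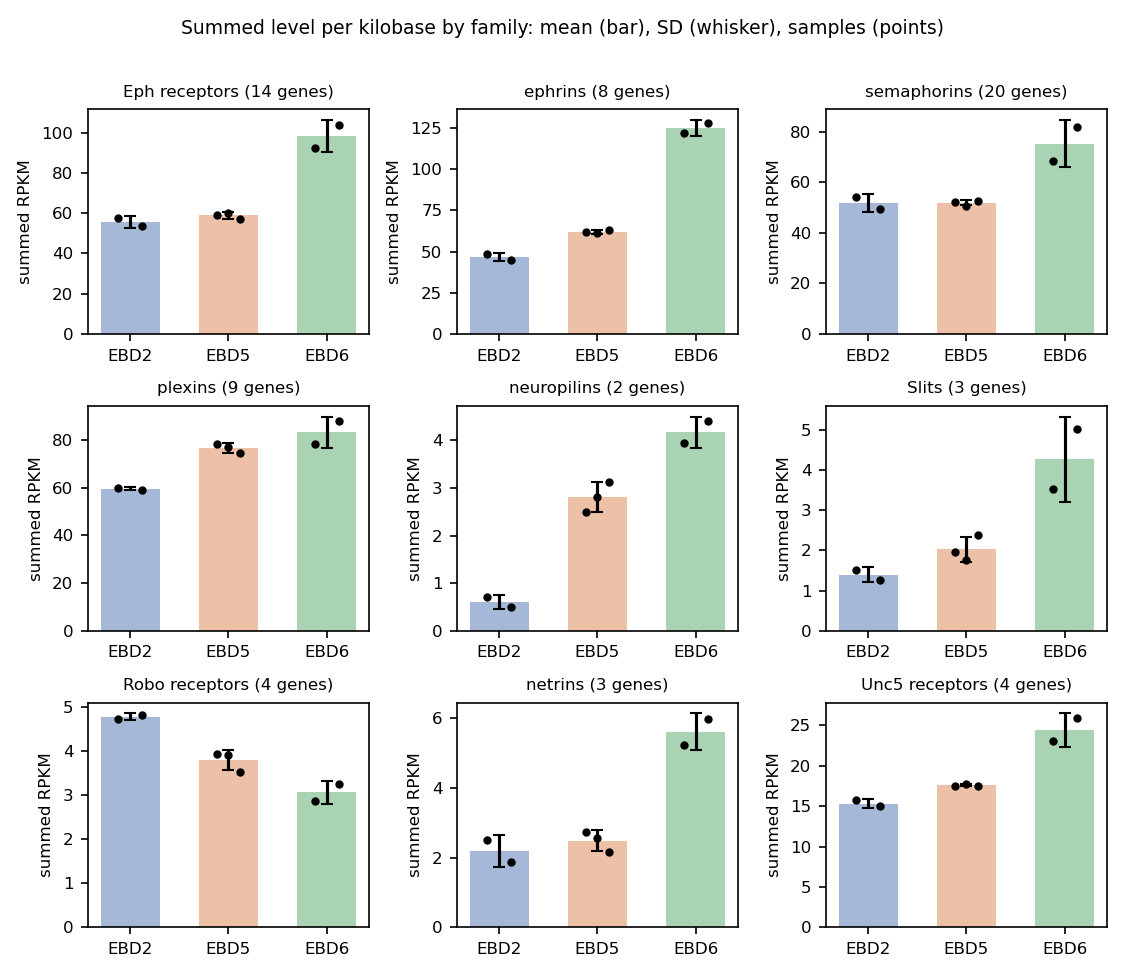
Summed level per kilobase (RPKM, linear axes from 0) of each family: bars are group means, whiskers the SD, and points the samples of EBD2 (n = 2), EBD5 (n = 3) and EBD6 (n = 2). The ephrin sum rises from 46.6 in EBD2 to 125 in EBD6, and the Robo sum goes from 4.79 to 3.07.

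The genes that work with these receptors, a list of 90 co-receptors, proteases and cytoplasmic effectors, also moved in both directions. Of 83 tested, 45 rose and 19 fell from EBD2 to EBD6 (median log2 fold change 0.31), 33 rose and 34 fell into EBD5 (0.00), and 46 rose and 19 fell from EBD5 to EBD6 (0.34). The shares of all tested genes that rose and fell were 33.8% and 32.3%, 34.9% and 35.1%, and 36.9% and 33.3% in these comparisons. Flrt3, a membrane protein that binds Unc5 and Robo receptors, had the largest change, from 1.92 ± 0.225 CPM in EBD2 (SD, n = 2) to 188 ± 7.79 in EBD5 (n = 3) and 156 ± 12.2 in EBD6 (n = 2), 78.2-fold over EBD2 (edgeR adjusted p = 1.2e-10). Dscam, a further netrin receptor, rose 17.4-fold over EBD2, from 0.592 ± 0.339 to 11.3 ± 3.74 CPM (edgeR adjusted p = 6.83e-06). Met and Flt1, receptor kinases tied to plexins and to neuropilins, rose 7.31-fold and 7.03-fold into EBD5 (edgeR adjusted p = 1.45e-09 and 1.53e-08). Kdr, which signals together with Nrp1, rose 26.7-fold from 0.342 ± 0.0138 CPM in EBD2 to 9.40 ± 0.0873 CPM in EBD6 (edgeR adjusted p = 2.29e-07).

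The collapsin response mediators, which carry semaphorin signals to microtubules, went both ways. Dpysl2 rose 14.9-fold from EBD2 to EBD6, from 3.90 ± 0.460 to 56.4 ± 3.98 CPM (edgeR adjusted p = 2.37e-09), and Crmp1 fell 2.72-fold, from 88.2 ± 1.32 to 31.5 ± 4.94 CPM (edgeR adjusted p = 3.7e-07). Dpysl3 fell 4.56-fold into EBD5 and stood at 40.4 ± 2.38 CPM in EBD6, against 80.8 ± 1.02 in EBD2. L1cam, a co-receptor of Sema3a with Nrp1, fell 4.80-fold from 15.5 ± 0.687 CPM in EBD2 to 2.99 ± 0.746 CPM in EBD6 (edgeR adjusted p = 5.32e-06). Rhoa and Cfl1, which link guidance receptors to actin, were highest in EBD5, at 332 ± 17.5 and 388 ± 14.4 CPM, and fell 2.26-fold and 1.62-fold into EBD6 (edgeR adjusted p = 6.1e-07 and 9.52e-06, the latter not called against a fold of 1.5).

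Markers of several cell types also differed between the groups, not all in the direction of most members, and their part in the results was not tested. The summed level of 12 neuroectoderm and neuron markers was 367 to 372 CPM in EBD2, 162 to 175 in EBD5 and 350 to 362 in EBD6. Single markers of this list went both ways between EBD2 and EBD6: Stmn2 went from 134 ± 15.8 to 44.2 ± 7.07 CPM, Six3 from 0.338 ± 0.228 to 29.7 ± 1.60 CPM and Nes from 35.3 ± 5.29 to 66.6 ± 6.30 CPM (SD, n = 2 each). Hes5 was at 0 in EBD5, and Dcx, a marker of young neurons, was at most 0.653 ± 0.323 CPM (SD, n = 2, in EBD6). The 12 endothelium and blood markers summed to 191 to 192 CPM in EBD2, 130 to 132 in EBD5 and 278 to 313 in EBD6, and Kdr and Flt1 are also on the partner list. Single markers of this list went both ways between EBD2 and EBD6: Cdh5 went from 0.171 ± 0.0069 to 44.8 ± 7.80 CPM, and Pecam1 from 152 ± 0.0178 to 81.3 ± 1.14 CPM (SD, n = 2 each).

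Summed endoderm markers were higher in EBD5 and EBD6 than in EBD2. The 12 visceral endoderm genes summed to 347 to 351 CPM in EBD2 (Apoa4 at 0), 3320 to 3390 in EBD5 and 1730 to 1780 in EBD6. The 10 parietal and primitive endoderm genes summed to 471 to 494, 2990 to 3100 and 3570 to 3730 CPM. Lrp2, most of the visceral endoderm sum in EBD2, was at 301 ± 2.22 CPM there, 818 ± 13.3 in EBD5 and 263 ± 10.6 in EBD6. Thbd, of the parietal list, was at 0.259 ± 0.131, 0.249 ± 0.290 and 1.32 ± 0.371 CPM. Every other gene of both lists had a higher mean in EBD5 and in EBD6 than in EBD2. The 12 streak and mesoderm genes summed to 52.7 to 61.1 CPM in EBD2, 229 to 236 in EBD5 and 308 to 325 in EBD6. Msgn1 was at 0 in EBD2, and Mesp1 and Hand2 were at 0 in EBD5. Single genes of this list went both ways. Eomes and Pdgfra had the highest means in EBD5, at 132 and 67.3 CPM. Mean Eomes was 27.6 CPM in EBD2 and 65.4 in EBD6. From EBD2 to EBD5, mean Bmp4 went from 16.0 to 12.3 CPM, T from 2.38 to 1.72 and Tbx6 from 2.01 to 0.998. The 10 trophoblast genes summed to 84.8 to 90.7 CPM in EBD2 (Cdx2, Elf5 and Prl3d1 at 0), 117 to 123 in EBD5 (Prl3d1 at 0) and 410 to 424 in EBD6. Hand1, at a mean of 67.0 CPM in EBD6, is counted in both the mesoderm and the trophoblast sums. The 6 epiblast genes summed to 820 to 889, 950 to 995 and 487 to 490 CPM, and the 8 neural crest genes to 77.1 to 83.1, 63.3 to 70.8 and 102 to 116. Between EBD2 and EBD6 genes of both lists went both ways. Of the epiblast genes, mean Otx2 went from 247 to 94.2 CPM and Cdh2 from 9.47 to 42.4 CPM. Of the neural crest genes, Foxd3 went from 32.0 to 13.8 CPM and Ets1 from 11.3 to 35.9 CPM.

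GC content of the longest transcript followed the fold changes of members into EBD5. Across the 59 members, Spearman's rho between GC content and log2 fold change was -0.52 for EBD5 against EBD2, 0.02 for EBD6 against EBD5 and -0.42 for EBD6 against EBD2. Across 13746 tested protein-coding genes it was -0.37, 0.56 and 0.17. These are correlations across genes that share libraries and are given as a description. Members that rose into EBD5 had a median GC content of 51.1%, and those that fell had 57.6%; for EBD6 against EBD2 the medians were 54.7% and 57.0%.

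**Figure D5:**
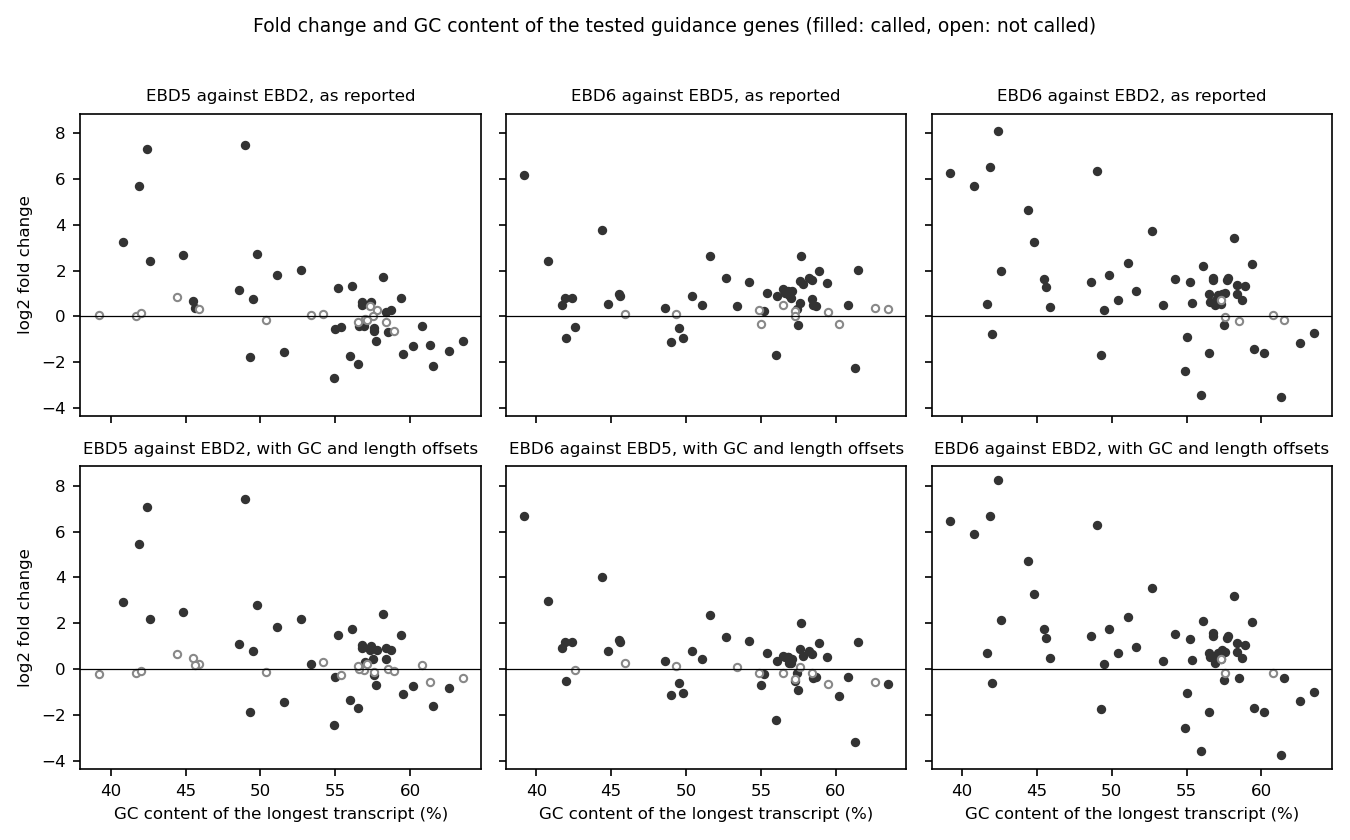
Log2 fold change (vertical) against GC content of the longest transcript in percent (horizontal) for the 59 tested guidance genes in the 3 comparisons, without (upper row) and with (lower row) offsets for GC content and length; filled points were called and open points were not. In EBD6 against EBD2 the median goes from 0.96 in the upper row to 0.71 in the lower, and in EBD6 against EBD5 the members called lower go from 8 to 16.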

How the data were processed

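Poly-A RNA was measured in 9 libraries of mouse embryoid bodies (3 groups of 3). Genes are expected counts as deposited by the authors, and the submitters' processing notes name the build mm10, RSEM 1.3.30 and STAR 2.7.10a, cutadapt 1.18, and also DESeq2 1.38.3 and edgeR 3.40.2; the strand setting of the counting is not given in the sources used here. The table has 54233 rows, of which 1 names no gene (at most 0.0157% of counts) and was left out. A second table, of the 3 EBD6 libraries, was identical in all of them, and 0 value columns were unmapped.

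Ensembl IDs were given symbols, exon lengths and positions from GENCODE M21 (GRCm38; 99.9% matched). Expected counts were rounded. Library pairs with no difference in a chi-square test over genes (EBD2 replicates 1 and 2, p = 1; EBD6 replicates 2 and 3, p = 0.169; genes with at least 20 counts) were summed. R 4.3.3 with edgeR 4.0.16 was used: filterByExpr, TMM, all groups in 1 quasi-likelihood fit with 4 residual degrees of freedom, Benjamini-Hochberg over all tested genes, calls at an adjusted p under 0.05. CPM used TMM-scaled library sizes, and RPKM divided CPM by union exon length. The fit was also run on simulated counts with known changes in a small share of genes above a minimum level. Those counts held no GC effect, so this run does not cover low members or the calls that changed with the offsets. Groups with 0 counts were compared at a floor of 3 counts, and those with 1 to 3 counts by an exact 95% counting interval. Depth limits low members: 1 count is worth up to 0.189 CPM in a sample.

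Alternatives were DESeq2 size factors, TMM over protein-coding genes, other filters, DESeq2 1.42.0, limma-voom (limma 3.58.1), a fold of 1.5, 9 separate libraries, a replicate block, EBD5 replicates 1 and 3 summed, only the groups compared, offsets by 10 GC and 3 length bins, and each library left out. The members and lists were chosen with earlier results of these data known. Full values are given, per family, comparison and direction, for at most 3 called members with the largest log2 change, no overlap of samples and at least 1 CPM, and for the member with the highest mean level per kilobase over the groups; partner genes for at most 4. A few other members are named, chosen after their values were seen.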

Additional observations from a re-analysis of the deposited data

Results flagged for a closer look

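One row of the count table, named MR3, matches no gene of the annotation and was left out of every comparison. It held 3504 counts over the 3 EBD6 libraries, against 3 counts over the EBD2 libraries and 0 over the EBD5 libraries, with 856, 1258 and 1390 counts in EBD6 replicates 1, 2 and 3. The sources used here do not say what it stands for.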

How the results depend on the processing

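Over the alternatives, 40 of the 54 calls of EBD6 against EBD2 kept their direction and call in every setting, as did 21 of 43 for EBD5 against EBD2 and 30 of 48 for EBD6 against EBD5. The share of all tested genes called is given for the main fit only, so the counts in other settings cannot be set against one. Tested against a fold of 1.5, EBD5 against EBD2 gave 14 guidance genes higher and 11 lower, and EBD6 against EBD5 gave 4 lower. The partner genes gave 19 higher and 12 lower, 22 higher and 2 lower, and, for EBD6 against EBD2, 11 lower. With GC and length offsets, 12 guidance and 21 partner genes were lower in EBD5 than in EBD2, and 16 guidance genes were lower in EBD6 than in EBD5; the cause was not tested. With these offsets and without or with the block, Unc5b turned to -0.36 and -0.36 and Plxnd1 to -0.35 and -0.34 for EBD6 against EBD5.

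Leaving out 1 library at a time gave 20 to 23 guidance genes higher and 18 to 20 lower (EBD5 against EBD2), 38 to 42 and 6 to 8 (EBD6 against EBD5), and 40 to 43 and 11 to 12 (EBD6 against EBD2). For partner genes the ranges were 32 to 34 and 29 to 35, 41 to 46 and 18 to 20, and 43 to 46 and 17 to 19. DESeq2's Wald test called 20 higher and 15 lower, 36 and 6, and 38 and 10 guidance genes.

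Replicate numbers did not clearly pair the samples: deviations of same-numbered libraries correlated at -0.21 to 0.17. Some libraries of a group differed by no more than sampling noise, so this check cannot show whether same-numbered libraries share a culture. With the replicate number as a block and 9 libraries, the 3 comparisons gave 23 guidance genes higher and 19 lower, 40 and 8, and 43 and 11; the block with GC and length offsets gave 13 lower in EBD5 than in EBD2 and 16 lower in EBD6 than in EBD5. The filter on counts kept 8 members out of the test.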
